A study of Arabidopsis thaliana with 8 samples.

Results

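The 7 genes described here act in the Arabidopsis root cap: FEZ (AT1G26870), SMB (SOMBRERO, AT1G79580), BRN1 (BEARSKIN1, AT1G33280), BRN2 (BEARSKIN2, AT4G10350), RCPG (ROOT CAP POLYGALACTURONASE, AT1G65570), CEL5 (a cellulase gene, AT1G22880) and BFN1 (BIFUNCTIONAL NUCLEASE1, AT1G11190). They were chosen by gene ID from what they are known to do, and all 7 were found among the 24279 genes listed in at least 1 library. RNA had been sequenced from roots of 6-d-old Arabidopsis thaliana plants, either wild type (Col) or the mutant line cml24-2. CML24 encodes a calmodulin-like calcium-binding protein, and the labels do not say what kind of allele cml24-2 is. Roots were taken after about 500 seedlings, raised hydroponically at pH 5.0, had spent 6 h at the same pH in 0 or 10 µM AlCl3. The 4 groups of 2 libraries were thus wild type without Al, wild type with Al, cml24-2 without Al and cml24-2 with Al, where Al stands for aluminium.

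The root cap is a sheath over the root tip that is renewed from stem cells inside and loses its oldest cells outside. FEZ, SMB, BRN1 and BRN2 encode transcription factors of the NAC family. FEZ promotes the divisions of root cap stem cells that add new cap layers, and SMB represses FEZ and promotes maturation of the daughter cells. BRN1 and BRN2 act redundantly in the last steps of cap maturation, before the outermost cells come off. RCPG, a polygalacturonase that cuts pectin, is a known target of BRN1 and BRN2. CEL5, a cellulase, also takes part in the loosening and shedding of cap cells. BFN1, an S1/P1-type nuclease, is made in lateral root cap cells that undergo programmed cell death downstream of SMB, and it degrades their nucleic acids. All these cells are a small part of a whole root, so in these bulk samples fewer cells of a type and less RNA per cell cannot be told apart.

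The sequence just before RCPG is shown because RCPG is a known target of NAC factors of the cap. Unlike those factors, it was not called lower with Al in either genotype. The sequence is the 250 bases before the gene start in RefSeq's annotation of TAIR10.1, chr1:24375896-24376145, written 5′ to 3′ on the gene's minus strand. The deposited files hold no coordinates, and the build behind them is not given in the sources used here. Capitals mark CACGTG.
RCPG: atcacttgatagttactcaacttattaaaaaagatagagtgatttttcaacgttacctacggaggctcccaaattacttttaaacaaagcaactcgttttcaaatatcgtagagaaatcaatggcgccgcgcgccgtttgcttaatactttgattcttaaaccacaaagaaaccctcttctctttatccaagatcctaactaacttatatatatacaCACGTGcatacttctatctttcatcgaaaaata
CACG, the core of many sites that NAC factors bind, was searched on both strands (CACG or CGTG). Its 2 matches before RCPG were the overlapping sides of 1 palindrome, CACGTG, 33 bases before the gene start. CACG or CGTG was in 45.6% of the same windows of 27443 genes and CACGTG in 6.49%, so a CACG match is common, and it is a description of the letters and not evidence of a binding site.

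Library totals were 11743433 to 12188917 expected counts, and 3 counts corresponded to 0.246 to 0.255 CPM (counts scaled by library total). CML24 itself was at 49.5 and 114 FPKM (fragments scaled by gene length and library total) in wild type without Al, 48.5 and 43.0 with Al, 207 and 129 in cml24-2 without Al and 146 and 106 with Al. It was called higher in cml24-2 with Al (log2 fold change 1.45 ± 0.37, SE; edgeR adjusted p = 0.045), a call that ended under 10 of 16 alternatives, among them each library of the comparison left out (adjusted p = 0.11 to 0.23). Without Al its log2 fold change was 1.08 ± 0.36 (SE; edgeR adjusted p = 0.079). With the kind of allele unknown, its level does not check the labels. All 6 root markers (SCR, SHR, WER, CASP1, COBL9 and EXPA7) were detected in every library, as were all 11 photosynthesis genes taken as markers of shoot tissue. The root markers summed to 190 to 229 FPKM without Al and 57.8 to 62.5 with Al, and the shoot markers to 94.1 to 118 and 29.7 to 51.3 in wild type and to 146 to 180 and 92.8 to 105 in cml24-2, each without and with Al. No list of root cap markers other than the 7 genes was used, so their cap origin was not checked against other markers. All 7 genes passed the filter on low counts.

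Without Al, all 7 genes were expressed at low to middling levels, and their order differed between the genotypes. In wild type without Al, CEL5 had the highest mean level at 22.3 ± 2.18 FPKM (SD, n = 2), above 70.3% of the genes tested. It was followed by SMB at 11.9 ± 1.15, BRN2 at 10.9 ± 0.269, BRN1 at 8.88 ± 0.29, RCPG at 6.14 ± 0.7, BFN1 at 4.96 ± 0.573 and FEZ at 4.26 ± 1.5 FPKM. The libraries of SMB and BRN2 overlapped, as did those of BFN1 and FEZ, so those neighbours were not separated beyond their spread. In cml24-2 without Al, BRN2 at 15.1 ± 0.156, SMB at 15.1 ± 0.205 and CEL5 at 14.8 ± 0.679 FPKM were not separated. BRN1 followed at 9.53 ± 1.88 FPKM, and then BFN1 at 6.36 ± 0.424, FEZ at 5.53 ± 1.15 and RCPG at 4.82 ± 0.912, each overlapping with the next. With Al the order changed in both genotypes: BFN1 had the highest mean, 6.61 ± 1.27 FPKM in wild type and 7.98 ± 0.346 in cml24-2. FEZ had the lowest, 0.65 ± 0.184 and 0.565 ± 0.0778 FPKM. BRN1 came next above it at 3.25 ± 0.559 and 4.08 ± 0.813 FPKM, with no overlap in either genotype, and the other 5 lay above BRN1, most of them overlapping with their neighbours.

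**Figure D1:**
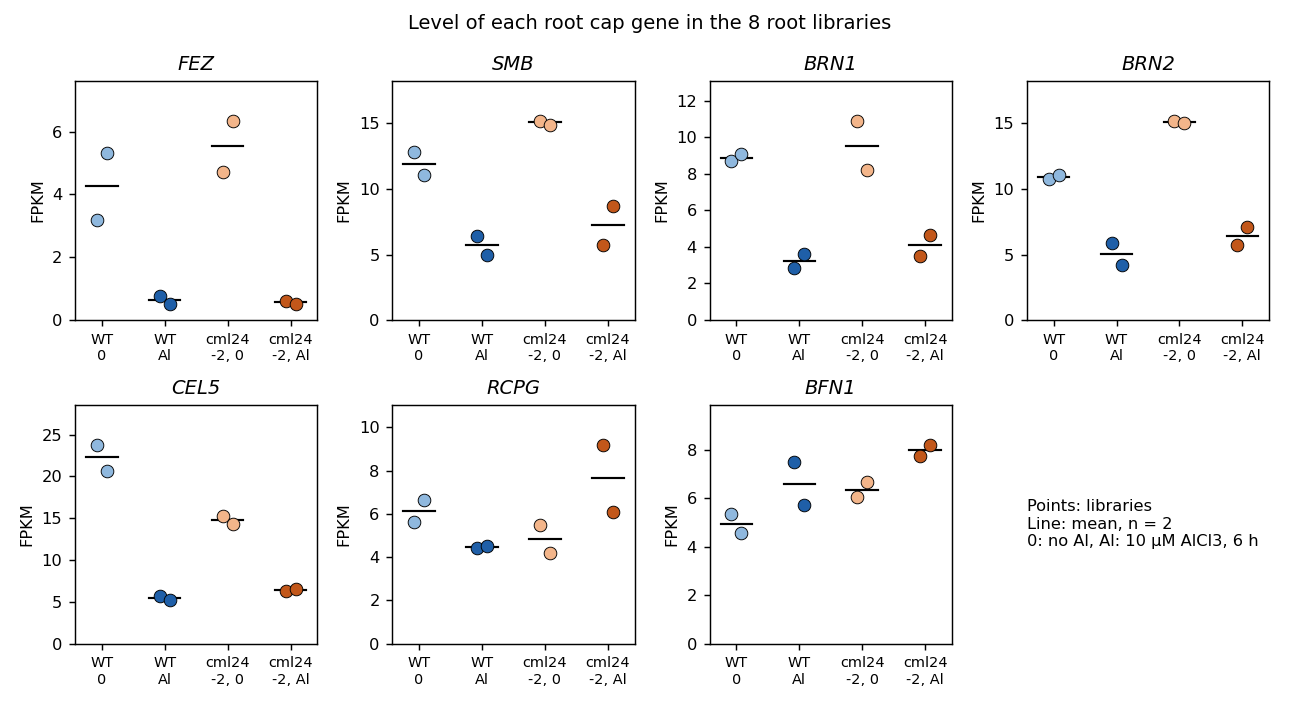
Level of each of the 7 root cap genes in FPKM (vertical axes, each from 0) in the 8 libraries, shown as points, with a line at the mean of the 2 libraries of a group. FEZ, SMB, BRN1, BRN2 and CEL5 are lower in every library with Al than in every library of the same genotype without it, RCPG is lower in wild type and higher in cml24-2, and BFN1 is higher in both.

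The first comparison asks what 6 h of Al did to these genes in wild-type roots. The 4 NAC factors and CEL5 fell, and RCPG and BFN1 did not pass the test. That is 5 of 7 genes called lower and 0 called higher at an adjusted p under 0.05 (edgeR's quasi-likelihood test, Benjamini-Hochberg adjustment), where 25.9% of the 20262 genes tested were called lower and 25.1% higher. The median log2 fold change of the 7 genes was -1.1, beside 0 for all genes tested.

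FEZ, which drives cap stem cell divisions, was at 3.2 and 5.32 FPKM without Al and at 0.78 and 0.52 with Al. The Al libraries held 14 and 9 counts against 58 and 96, all above 3 counts, and the groups did not overlap. It fell by 2.67 ± 0.38 (SE) on the log2 scale, a 6.36-fold lower level (95% interval of the log2 change -3.52 to -1.82, edgeR adjusted p = 0.00036), and 2.59% of the genes tested had a lower log2 fold change.

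SMB, the maturation factor that restrains FEZ, was at 12.8 and 11.1 FPKM without Al and at 6.4 and 5 with Al. Both Al libraries lay far below both without it. It fell by 1.02 ± 0.19 (SE) on the log2 scale, a 2.03-fold lower level (edgeR adjusted p = 0.002).

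BRN1 was at 8.68 and 9.09 FPKM without Al and at 2.85 and 3.64 with Al, and BRN2 at 10.8 and 11.1 without and 5.87 and 4.17 with Al. Neither gene's groups overlapped. BRN1 fell by 1.42 ± 0.22 (SE) on the log2 scale (edgeR adjusted p = 0.0007) and BRN2 by 1.1 ± 0.18 (edgeR adjusted p = 0.00085), with 95% intervals of -1.93 to -0.92 and -1.5 to -0.69 that overlapped.

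The genes of wall breakdown moved unequally. CEL5, the cellulase, was at 23.8 and 20.7 FPKM without Al and at 5.75 and 5.25 with Al, with the Al libraries close to each other and far below the rest. It fell by 1.98 ± 0.11 (SE) on the log2 scale, a 3.96-fold lower level (edgeR adjusted p = 2.4e-06), and 4.3% of the genes tested had a lower log2 fold change. RCPG, the pectin-cutting enzyme, was at 5.65 and 6.64 FPKM without Al and at 4.44 and 4.53 with Al. Its Al libraries were both lower, but its log2 fold change of -0.42 ± 0.24 (SE) did not pass the test (edgeR adjusted p = 0.16, 95% interval -0.96 to 0.11).

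BFN1, the cell death nuclease, was at 5.37 and 4.56 FPKM without Al and at 7.5 and 5.71 with Al. Both Al libraries were higher than both without it, by little for the second. The log2 fold change of 0.44 ± 0.18 (SE) did not pass the test (edgeR adjusted p = 0.062), and it passed once wild-type Al replicate 2 was left out (log2 fold change 0.61, adjusted p = 0.039). The wild-type libraries with and without Al did not overlap for any of the 7 genes, with 6 lower and 1 higher; of all genes tested, 37.8% were lower and 37.9% higher in this way.

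In cml24-2 roots the same 5 genes fell with Al, and RCPG was called higher, a call that ended under 11 of 16 alternatives. That is 5 of 7 called lower and 1 called higher by edgeR, where 23.3% of all genes tested were called lower and 21.3% higher, and the median log2 fold change of the 7 genes was -1.22 beside -0.01 for all genes. FEZ fell by 3.3 ± 0.37 (SE) on the log2 scale, a 9.86-fold lower level (edgeR adjusted p = 0.00015), from 4.72 and 6.34 FPKM to 0.62 and 0.51. Its 2 Al libraries held 11 and 9 counts, and 1.37% of the genes tested had a lower log2 fold change.

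SMB was at 15.2 and 14.9 FPKM without Al and at 5.7 and 8.74 with Al, the Al libraries differing by more than those without. It fell by 1.09 ± 0.19 (SE) on the log2 scale (edgeR adjusted p = 0.0014). BRN1 was at 10.9 and 8.2 FPKM without Al and at 3.51 and 4.66 with Al, and fell by 1.24 ± 0.21 (SE; edgeR adjusted p = 0.0015). BRN2, its partner in late maturation, was at 15.2 and 15 FPKM without Al and at 5.71 and 7.13 with Al, and fell by 1.26 ± 0.17 (SE; edgeR adjusted p = 0.00039). None of these groups overlapped.

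CEL5 was at 15.3 and 14.3 FPKM without Al and at 6.29 and 6.59 with Al, and fell by 1.22 ± 0.11 (SE) on the log2 scale, a 2.33-fold lower level (edgeR adjusted p = 5e-05). It ended near its wild-type level with Al from a lower start. RCPG was at 5.47 and 4.18 FPKM without Al and at 9.21 and 6.08 with Al, so that both Al libraries were higher and the first much higher than the second. It rose by 0.64 ± 0.23 (SE) on the log2 scale, a 1.56-fold higher level (edgeR adjusted p = 0.047, 95% interval 0.12 to 1.16). This call ended under 11 of 16 alternatives, with the log2 fold change at 0.31 (adjusted p = 0.35) without cml24-2 Al replicate 1, 0.46 (0.23) without cml24-2 control replicate 2 and 0.84 (0.057) without cml24-2 control replicate 1, and with adjusted p = 0.11 in DESeq2, 0.054 with the replicate block and 0.074 without either wild-type Al replicate.

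BFN1 was at 6.06 and 6.66 FPKM without Al and at 7.73 and 8.22 with Al, higher in both Al libraries. Its log2 fold change of 0.3 ± 0.17 (SE) did not pass the test (edgeR adjusted p = 0.17, 95% interval -0.08 to 0.68). The cml24-2 libraries with and without Al did not overlap for any of the 7 genes, with 5 lower and 2 higher, where 38.2% of the genes tested were lower and 36.7% higher in this way. In both genotypes the Al calls of FEZ, SMB, BRN1, BRN2 and CEL5 held under every alternative run.

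**Figure D2:**
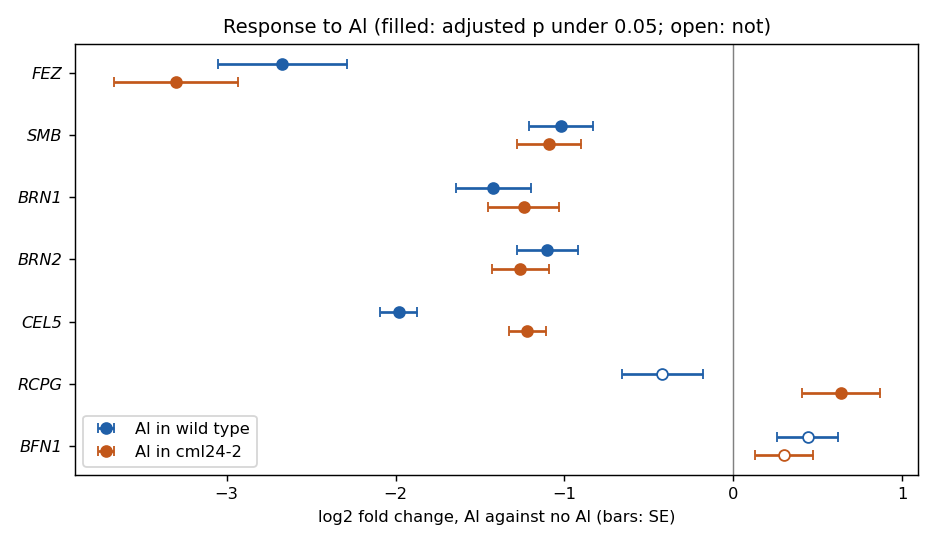
Log2 fold change with Al (horizontal axis) of the 7 genes in wild type (blue) and cml24-2 (orange), from the edgeR fit, with bars for the SE; filled points passed an adjusted p of 0.05. FEZ fell furthest in both genotypes, CEL5 is at -1.98 in wild type and -1.22 in cml24-2, and RCPG lies on opposite sides of 0.

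All 6 root markers also fell with Al in each genotype, where 25.9% and 23.3% of all genes tested were called lower. Their median log2 fold change was -2.36 in wild type and -2.77 in cml24-2. Most of them mark root cell types other than the cap. The log2 fold changes in wild type and cml24-2 were -2.52 and -3.18 for CASP1, a gene of the endodermal barrier, and -4.12 and -3.57 for COBL9, a root hair gene. WER, an epidermal fate gene also active in the lateral root cap, had -2.19 and -2.36, and the ground tissue regulator SHR had -0.36 and -0.5. The part of such wider changes in the fall of the cap genes was not tested. The 5 cap genes that fell lay between -3.3 and -1.02, inside the range of these markers.

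The FPKM of RCPG and BFN1 relative to the factors known to act upstream of them were higher in every Al library than in every library without Al. RCPG over the sum of BRN1 and BRN2 was 0.291 and 0.328 in wild type without Al, 0.509 and 0.58 with Al, 0.21 and 0.18 in cml24-2 without Al and 0.999 and 0.516 with Al. BFN1 over SMB was 0.421 and 0.41, then 1.17 and 1.14, in wild type without and with Al, and 0.398 and 0.446, then 1.36 and 0.941, in cml24-2. RCPG over CEL5, the 2 wall-degrading enzymes, was 0.237 and 0.32, then 0.772 and 0.863, in wild type, and 0.358 and 0.292, then 1.46 and 0.923, in cml24-2. No test was run on these ratios, which restate the levels above. In whole roots, both sides of a ratio need not come from the same cells.

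**Figure D3:**
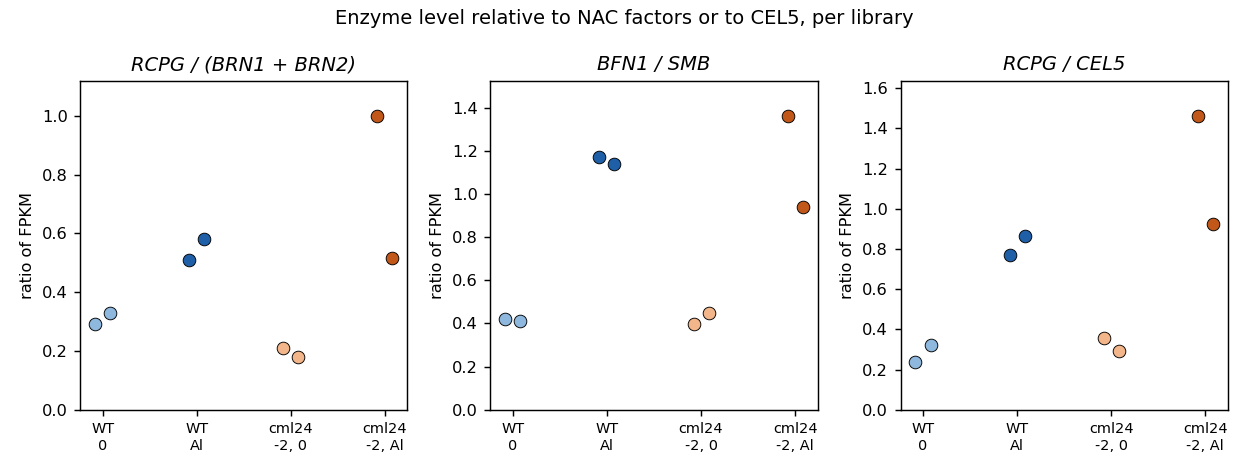
Ratio of FPKM in each library (vertical axes, from 0) for RCPG over BRN1 plus BRN2, BFN1 over SMB and RCPG over CEL5, by group. In each panel every Al library lies above every library without Al; RCPG over BRN1 plus BRN2 is 0.18 to 0.328 without Al and 0.509 to 0.999 with it.

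Without Al, cml24-2 roots had less CEL5 than wild type, and the other 6 genes did not pass the test. That is 1 of 7 genes called lower and 0 higher, where 5.50% of the genes tested were called lower and 7.41% higher by edgeR. CEL5, at 15.3 and 14.3 FPKM in cml24-2 against 23.8 and 20.7, was lower by a log2 fold change of -0.55 ± 0.1 (SE; edgeR adjusted p = 0.012, 95% interval -0.78 to -0.31), and the groups did not overlap. This call ended with only the 4 libraries compared (adjusted p = 0.051) and without cml24-2 control replicate 1 (0.053) or 2 (0.075).

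The NAC factors had positive log2 fold changes in cml24-2 that did not pass the test: 0.51 ± 0.16 (SE) for BRN2 (edgeR adjusted p = 0.069), 0.39 ± 0.18 for SMB (0.18), 0.42 ± 0.27 for FEZ (0.35) and 0.14 ± 0.2 for BRN1 (0.67). The values of BRN2 and SMB were higher in both cml24-2 libraries, those of FEZ and BRN1 overlapped. BFN1 was higher in both, with a log2 fold change of 0.4 ± 0.18 (SE) and an edgeR adjusted p = 0.17. RCPG overlapped, with -0.31 ± 0.23 (SE) and an edgeR adjusted p = 0.42. Thus the libraries of the genotypes did not overlap for 3 genes higher and 1 lower in cml24-2, where 29.9% of the genes tested were higher and 25.9% lower in this way.

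With Al, none of the 7 genes was called between the genotypes, where 8.02% of the genes tested were called by edgeR. RCPG came nearest, at 9.21 and 6.08 FPKM in cml24-2 against 4.44 and 4.53 in wild type, with no overlap. Its log2 fold change was 0.76 ± 0.23 (SE; unadjusted p = 0.0096, edgeR adjusted p = 0.082, 95% interval 0.23 to 1.28), and it was called with only the 4 libraries compared (adjusted p = 0.028) and without wild-type control replicate 1 (0.045) or 2 (0.048). DESeq2 also called 0 of 7, and RCPG was the 1 gene with an unadjusted p under 0.05 in edgeR. The other 6 had log2 fold changes from -0.22 for FEZ to 0.35 for BRN2. Of the 7, BFN1, RCPG and CEL5 did not overlap between the genotypes, all 3 higher in cml24-2, as were 29.5% of the genes tested.

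The interaction asks whether the Al response itself differed between the genotypes. None of the 7 genes was called, nor by DESeq2, where 0.301% of the genes tested were called by edgeR. At an unadjusted p under 0.05 there were 2, CEL5 and RCPG. CEL5 had an interaction of 0.77 ± 0.16 (SE) on the log2 scale (unadjusted p = 0.00098, edgeR adjusted p = 0.099, 95% interval 0.4 to 1.13), its fall in cml24-2 being the smaller. With wild-type control replicate 2 left out it was called (0.84, adjusted p = 0.048). RCPG had an interaction of 1.06 ± 0.33 (SE; unadjusted p = 0.01, edgeR adjusted p = 0.23, 95% interval 0.32 to 1.81), so a call in cml24-2 and none in wild type does not show that its responses differed. For SMB, BRN1, BRN2 and BFN1 the interaction was between -0.16 and 0.18 with intervals from -0.72 to 0.89, and for FEZ it was -0.63 ± 0.59 (SE; edgeR adjusted p = 0.72, 95% interval -1.98 to 0.71). The Al and genotype comparisons share libraries, so their values are not independent of each other.

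Genes of programmed cell death, the process that BFN1 serves in the lateral root cap, rose with Al more often than they fell. Of 9 such genes tested, 6 rose and 1 fell in wild type and 4 rose and 0 fell in cml24-2, with medians of 0.56 and 0.29, where 25.1% and 21.3% of all genes tested were called higher. Of the 6 wild-type calls, those of MC9 and EXI1 each ended under 5 of 16 alternatives, DESeq2 among them (adjusted p = 0.08 and 0.19). MC9 was not called with wild-type Al replicate 1 (0.15) or wild-type control replicate 2 (0.091) left out, nor EXI1 without any 1 of the 4 wild-type libraries (0.055 to 0.098). In cml24-2 the call of DMP4 ended without either cml24-2 Al replicate (0.056 and 0.068) and without cml24-2 control replicate 2 (0.081). NAC087, a NAC factor of cap cell death, was at 23.1 and 31.6 FPKM in wild type without Al and at 87.8 and 89.3 with Al, and at 51.8 and 53.8, then 116 and 99.7, in cml24-2. It thus moved opposite to FEZ, SMB, BRN1 and BRN2, rising by 1.72 ± 0.16 (SE) in wild type (edgeR adjusted p = 3.1e-05) and 1.02 ± 0.15 in cml24-2 (adjusted p = 0.00073). NAC046, another NAC gene of this list, did not share that rise. Its libraries overlapped in wild type, at 37 and 47.8 FPKM without Al and 37.6 and 39.3 with Al. They also overlapped in cml24-2, at 26.4 and 40.4, then 40.6 and 38.1 FPKM. CEP1, a papain-type protease of dying cells, rose by 2.74 ± 0.45 (SE) and 2.35 ± 0.38 from low levels of 0.31 to 1.93 FPKM (edgeR adjusted p = 0.00084 and 0.0011). SCPL48, a carboxypeptidase-like gene, rose by 0.63 ± 0.11 and 0.86 ± 0.11 (edgeR adjusted p = 0.0011 and 0.00028).

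PASPA3, an aspartic protease gene and a marker of developmental cell death, was the gene that fell in wild type. It was at 8.18 and 8.77 FPKM without Al and at 3.66 and 3.47 with Al, a fall of 1.21 ± 0.16 (SE) on the log2 scale (edgeR adjusted p = 0.00029). In cml24-2 it was at 6.9 and 6.47, then 6.95 and 5.33 FPKM, which overlap (log2 fold change -0.15 ± 0.16, SE; edgeR adjusted p = 0.47). Its interaction of 1.06 ± 0.23 (SE) was not called (edgeR adjusted p = 0.11), but it was with wild-type control replicate 1 left out (1.19, adjusted p = 0.036). Among the 4 other S1/P1-type nuclease genes, relatives of BFN1, 1 rose and 2 fell in wild type and 1 rose and 1 fell in cml24-2, so the family did not move one way. Among all genes tested, 25.1% were called higher and 25.9% lower in wild type, and 21.3% and 23.3% in cml24-2. ENDO2 had log2 fold changes of 1.08 ± 0.25 (SE) and 1.13 ± 0.23 (edgeR adjusted p = 0.006 and 0.004), the former at an adjusted p of 0.051 without wild-type Al replicate 1, and ENDO3 one of -1.28 ± 0.24 in wild type (edgeR adjusted p = 0.002).

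Other genes linked to cell separation showed no common direction. Of 11 listed, 9 were tested, and 1 rose and 2 fell in each genotype, with medians of -0.57 in wild type and -0.04 in cml24-2. Of all genes tested, 25.1% were called higher and 25.9% lower in wild type, and 21.3% and 23.3% in cml24-2. QRT2, a polygalacturonase gene of pollen and organ separation and thus of the same enzyme class as RCPG, was at 4.85 and 7.11 FPKM in wild type without Al and at 22.6 and 21 with Al, and at 2.64 and 4.34, then 11.6 and 9.37, in cml24-2. It rose by 1.89 ± 0.23 (SE) and 1.56 ± 0.25 on the log2 scale (edgeR adjusted p = 0.00015 and 0.0011). CEL1, a cellulase gene of the same family as CEL5, was at 50.8 and 44.2 FPKM in wild type without Al and at 19.2 and 17.1 with Al. Like CEL5 it fell, by 1.35 ± 0.12 (SE) and 1.46 ± 0.11 (edgeR adjusted p = 2.1e-05 and 2e-05). Other listed genes of these classes were not called with Al. CEL3, a cellulase gene, was at 1.2 and 2.63, then 1.44 and 0.98 FPKM in wild type, and overlapped in both genotypes. ADPG2, a polygalacturonase gene, was at 1.26 and 1.08, then 0.67 and 0.87 FPKM in wild type, and overlapped in cml24-2. ADPG1 was at 0 FPKM in every library. HSL1, a receptor kinase gene, fell by 0.61 ± 0.11 and 0.58 ± 0.11 (edgeR adjusted p = 0.0017 and 0.003). NLP7, a factor known to affect the release of cap cells, had log2 fold changes of 0.16 and 0.04 (edgeR adjusted p = 0.33 and 0.82).

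Genes that control the stem cells at the base of the cap followed FEZ in direction where they were called. Of 8 listed, 7 were tested, and 4 fell in wild type and 3 in cml24-2, with none rising and with medians of -0.37 and -0.08, where 25.9% and 23.3% of all genes tested were called lower. The wild-type call of ACR4, a receptor kinase gene, ended under 9 of 16 alternatives (log2 fold change -0.47, and -0.3 with adjusted p = 0.25 without wild-type Al replicate 1), and that of ARF16 without wild-type Al replicate 2 (0.052). In cml24-2 the call of ACR4 ended with DESeq2 (0.066) and without cml24-2 Al replicate 2 (0.05). PLT1, a factor that maintains the root meristem, fell by 0.86 ± 0.12 (SE) and 1.01 ± 0.12 (edgeR adjusted p = 0.00039 and 0.00017), and PLT2 fell by 1.01 ± 0.14 and 0.61 ± 0.13 (edgeR adjusted p = 0.00037 and 0.0047), the latter call ending with DESeq2 (0.057). WOX5, the factor of the quiescent centre, had log2 fold changes of -0.01 and 0.24 (edgeR adjusted p = 0.99 and 0.56).

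**Figure D4:**
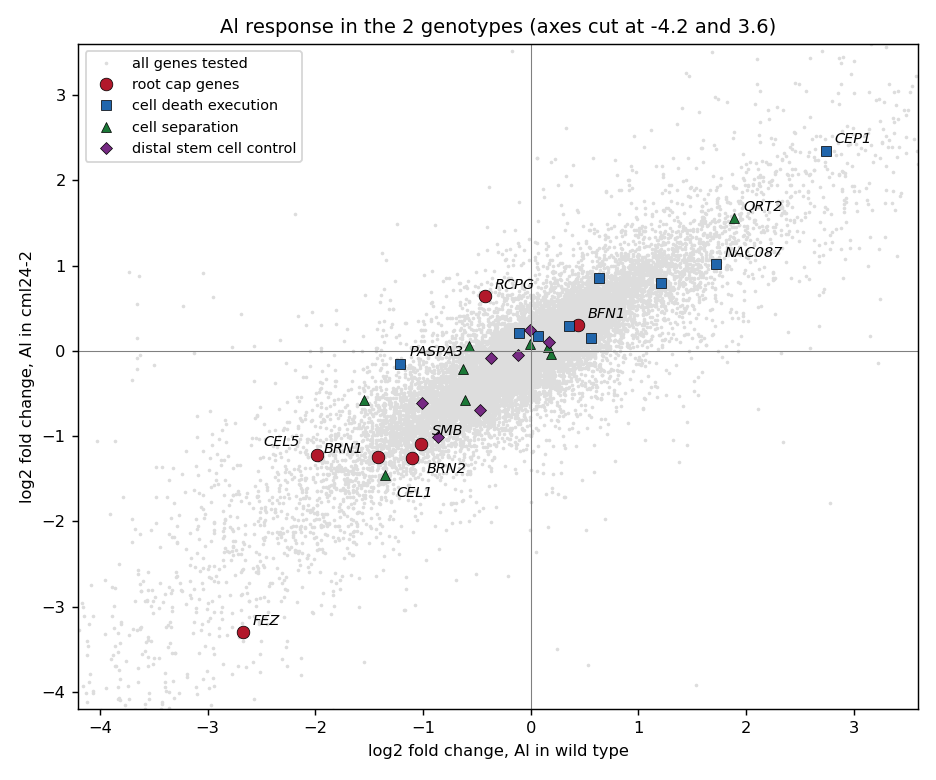
Log2 fold change with Al in wild type (horizontal axis) and in cml24-2 (vertical axis) for the genes tested, with the 7 root cap genes and 3 related lists marked; points beyond the axes are not drawn. FEZ, SMB, BRN1, BRN2 and CEL5 lie in the lower left, NAC087, CEP1 and QRT2 in the upper right, and RCPG and PASPA3 off the main diagonal.

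Between the genotypes, the genes of these lists that were called were mostly higher in cml24-2, as were most of all genes called. The calls of most list genes ended under some alternative. NAC087 was higher in cml24-2 without Al by a log2 fold change of 0.99 ± 0.16 (SE; edgeR adjusted p = 0.0058), a call that held under every alternative run. With Al, PASPA3 was higher in cml24-2 by 0.77 ± 0.17 (SE; edgeR adjusted p = 0.029) and QRT2 lower by a log2 fold change of -1.07 ± 0.22 (adjusted p = 0.022). The PASPA3 call ended in DESeq2 (adjusted p = 0.086) and without wild-type Al replicate 1 (0.16) or 2 (0.17) or cml24-2 Al replicate 1 (0.16), and the QRT2 call with limma on log2(FPKM + 0.1) (0.091) and without wild-type Al replicate 1 (0.15) or 2 (0.12) or cml24-2 Al replicate 1 (0.081) or 2 (0.15). Among the 7 stem cell genes tested, 2 were called higher in cml24-2 without Al and 3 with Al, and 0 lower. Of the 9 cell death genes, 1 was called higher and 0 lower in each comparison. Of the 9 cell separation genes tested, 2 were called higher and 0 lower without Al, and 1 higher and 1 lower with Al. Of the 20262 genes tested, 1501 (7.41%) were called higher and 1115 (5.50%) lower without Al, and 938 higher and 687 lower with Al. PLT2 was higher by log2 fold changes of 0.46 ± 0.13 (SE) and 0.86 ± 0.15 without and with Al (edgeR adjusted p = 0.049 and 0.011), calls that ended under 15 of 17 and 3 of 16 alternatives. PLT1 was called without Al (0.59 ± 0.11, SE; edgeR adjusted p = 0.012; lost under 4 of 17), and WOX5 (1.31 ± 0.34, SE; edgeR adjusted p = 0.049; lost under 10 of 16) and ARF16 (0.4 ± 0.09, SE; edgeR adjusted p = 0.034; lost under 8 of 16) with Al. Single libraries ended these calls: for PLT1, wild-type control replicate 1 (adjusted p = 0.055 without it) and cml24-2 control replicate 2 (0.076); for PLT2 without Al, any library except wild-type control replicate 2 (0.071 to 0.21); for PLT2 with Al, either wild-type Al replicate (0.087 and 0.096) and cml24-2 Al replicate 2 (0.074). WOX5 and ARF16 lost their calls with any 1 of the 4 Al libraries left out (0.093 to 0.26 and 0.085 to 0.2), WOX5 also without either cml24-2 control replicate (0.051 and 0.054) and ARF16 without the second of them (0.051).

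Among the cell separation genes, ADPG2, a polygalacturonase gene, was higher in cml24-2 by 1.16 ± 0.31 (SE) without Al and 1.79 ± 0.33 with Al (edgeR adjusted p = 0.04 and 0.015), calls that ended under 11 of 17 and 4 of 16 alternatives. CEL1 was higher without Al by 0.47 ± 0.11 (SE; edgeR adjusted p = 0.028), a call that ended under 7 of 17. The libraries whose removal ended these calls were, for ADPG2 with Al, each of the 4 compared (adjusted p = 0.062 to 0.15), for ADPG2 without Al, any of the 8 except cml24-2 control replicate 1 (0.064 to 0.24), and for CEL1 without Al, wild-type control replicate 2 (adjusted p = 0.068), cml24-2 control replicate 2 (0.16) and either wild-type Al replicate (0.055). No gene of any list was called in the interaction, where only 0.301% of the genes tested were called by edgeR. In the comparison with Al, 7 of the 11 shoot markers were also called higher in cml24-2, as were 938 of the 20262 genes tested. The median log2 fold change of the shoot markers was 1.37, and their part in these differences was not tested.

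The genes whose level followed each cap gene most closely over the 8 libraries are given as a description, with Pearson's r of log2 CPM and no test. The groups with and without Al set much of these values. For the genes that fell with Al, likeness was common: 1280 to 2262 genes had an r of 0.9 or more with SMB, BRN1, BRN2, FEZ or CEL5. RGL1 was the most like SMB (r = 0.995), GLR2.1 the most like FEZ (0.997), AT3G57785 the most like BRN2 (0.998), AT3G10530 the most like BRN1 (0.993) and AT4G15000 the most like CEL5 (0.997). BFN1 had 120 such genes, led by AT5G10060 (0.975). RCPG had 3, namely PAP28 (0.953), MC7 (0.945) and AT1G64330 (0.915), so that its pattern across the 8 libraries was matched by the fewest genes of the 7.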

How the data were processed

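Total RNA from 8 root libraries was sequenced on the BGISEQ-500, per the labels' protocols. The authors deposited, per library, RSEM expected counts and FPKM per gene (RSEM per the submitters' processing notes); aligner and build: not given in the sources used here. A gene absent from a file was taken as 0, the lowest listed FPKM being 0.01. Between 89.1% and 89.5% of expected counts were whole (within 0.005), and they were rounded. edgeR 4.0.16 in R 4.3.3 fitted all 8 libraries with 1 mean per group (TMM factors 0.984 to 1.03, filterByExpr by group, quasi-likelihood test, 4 residual degrees of freedom). Genes were called at a Benjamini-Hochberg adjusted p under 0.05 over all 20262 genes tested. The fit was tested on simulated data in which few genes changed, unlike the Al comparisons here. Limits of 3 counts cover counting error only.

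The 7 genes and the related lists were chosen with earlier results of these data known. The text may name any gene of these lists, with up to 3 most alike genes per root cap gene of mean FPKM 2 or more; the list genes named were picked after their values were seen. Nothing in the labels says that the 2 libraries of a group are separate cultures; p-values therefore reflect only the spread between libraries, which may be technical. Alternatives were DESeq2 1.42.0, RLE size factors, a strict filter (1 CPM in 4 libraries) or none on low counts, the replicate number as a block, limma 3.58.1 on log2(FPKM + 1) and log2(FPKM + 0.1), only the 4 libraries compared, and each library left out in turn. A crossed block was added after seeing the data.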

Additional observations from a re-analysis of the deposited data

How the results depend on the processing

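Among the values of the 7 genes and of the list genes examined under the alternatives, 1421 kept their direction and side of the threshold, 176 lost a call (14 of them in the 7 genes), 14 gained one and 11 changed sign, for causes that were not tested. Genes called were 2616 without Al between genotypes, and 1700 with DESeq2, 1439 with limma on log2(FPKM + 0.1) and 888 with only the 4 libraries compared; 1625 with Al between genotypes, and 861 with limma on log2(FPKM + 0.1) and 3340 with only the 4 libraries; and 61 in the interaction, and 191 with DESeq2 and 29 with limma on log2(FPKM + 0.1). With each library left out they were 7780 to 10038 for Al in wild type (10327 with all), 6508 to 10048 for Al in cml24-2 (9030), 807 to 3060 without Al, 148 to 2788 with Al and 12 to 482 in the interaction. Root cap genes called were 5 to 6 for Al in wild type, 5 to 6 in cml24-2 and 0 to 1 in each of the other 3; with only the 4 libraries compared they were 0 without Al and 1 with Al between genotypes.

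The same-numbered libraries did not pair: their deviations correlated at -0.168 to 0.144. With the replicate block, genes called were 10318 and 8989 for Al in wild type and cml24-2, 2531 and 1405 between genotypes without and with Al and 57 in the interaction, and RCPG in cml24-2 was the 1 root cap call lost (adjusted p = 0.054). In the 2 groups without Al the correlation was -0.105, and a crossed block, added after seeing the data, called 2764 genes.

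Sign changes came only with a library left out, in values that were not called. They were BRN1 without Al (-0.07 to 0.33), SMB (-0.02 to 0.58) and FEZ (-0.47 to 0.1) with Al, the interactions of SMB (-0.4 to 0.2), BRN1 (-0.04 to 0.39), BRN2 (-0.38 to 0.1) and BFN1 (-0.31 to 0.05), and PASPA3 with Al in cml24-2 (-0.35 to 0.03). FEZ had 9 to 14 counts in each Al library, which limits the precision of its values there.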

Other observations

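Other genes near the cap's biology moved in a mixed way. With Al, 25.1% of all genes tested were called higher and 25.9% lower in wild type, and 21.3% and 23.3% in cml24-2. Of 4 genes of the cuticle that covers the young root cap, 1 rose and 1 fell with Al in each genotype: GPAT4, an acyltransferase gene, rose by 1.72 ± 0.22 (SE) and 1.35 ± 0.22 on the log2 scale (edgeR adjusted p = 0.00022 and 0.0011), and its close relative GPAT8 fell by 0.96 ± 0.2 and 0.69 ± 0.19 (edgeR adjusted p = 0.0032 and 0.016). The GPAT8 call in cml24-2 ended without cml24-2 control replicate 1 (0.086) or cml24-2 Al replicate 2 (0.095) and with DESeq2 (0.056).

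Of 9 genes of gravity sensing in the columella, the central part of the cap, 3 rose and 2 fell in wild type and 2 rose and 2 fell in cml24-2, with medians of 0.11 and -0.23. The shares of all genes called higher and lower were 25.1% and 25.9% in wild type and 21.3% and 23.3% in cml24-2. PIN7, an auxin carrier gene, rose in both by 0.67 ± 0.09 (SE) and 0.43 ± 0.09 (edgeR adjusted p = 0.00023 and 0.0034). It was also called higher in cml24-2 without Al (0.33 ± 0.09, SE; edgeR adjusted p = 0.039), a call that ended under 14 of 17 alternatives, among them any 1 of the 8 libraries left out (0.061 to 0.18). LZY2, a gene of gravity signalling, fell by 1.86 ± 0.32 (SE) in wild type (edgeR adjusted p = 0.0012), and in cml24-2 its log2 fold change was -0.8 ± 0.32 (adjusted p = 0.071). The other LZY genes listed differed in direction. LZY3 was higher with Al, at 1.56 and 1.96, then 3.11 and 3.38 FPKM in wild type, and 2.45 and 2.06, then 2.98 and 4.09, in cml24-2. LZY4 was lower, at 2.36 and 1.6, then 0.54 and 0.55 FPKM in wild type, and 2.14 and 2.14, then 1.27 and 1.63, in cml24-2. It was called lower in wild type, a call that ended with DESeq2 (adjusted p = 0.053). Neither LZY3 nor LZY4 was called in cml24-2, so the 2 genes that fell there were other members of this list. Of 7 tested NAC relatives that direct wall thickening, none was called with Al in wild type and 3 fell in cml24-2, where 23.3% of all genes tested were called lower. The call of VND5 ended under 12 of 16 alternatives (adjusted p up to 0.33) and that of VND3 under 3, with DESeq2 (0.11) and without cml24-2 control replicate 2 (0.055) or cml24-2 Al replicate 1 (0.063). VND7, a xylem vessel factor, had the lowest log2 fold change of these at -1.12 ± 0.29 (SE; edgeR adjusted p = 0.012), a call that ended with DESeq2 (0.13) and without cml24-2 control replicate 1 (0.06) or cml24-2 Al replicate 2 (0.09). VND6, another xylem vessel factor, was called higher in cml24-2 without Al (1.28 ± 0.25, SE; edgeR adjusted p = 0.014) and with Al (1.5 ± 0.29, SE; edgeR adjusted p = 0.018), calls that ended under 5 of 17 and 5 of 16 alternatives, without Al among them wild-type control replicate 1 (0.065) or cml24-2 control replicate 1 (0.078) or 2 (0.065) left out, and with Al each of the 4 libraries compared left out (0.067 to 0.14).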
